A study of Mus musculus with 4 samples.

Results

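The m6A readers of the YTH and IGF2BP families were examined in alveolar type 2 (AT2) cells of the mouse lung with and without Alkbh5. Members were chosen by name: Ythdf1, Ythdf2, Ythdf3, Ythdc1, Ythdc2, Igf2bp1, Igf2bp2 and Igf2bp3. All 8 were found among the 40092 genes of the count table, and 7 of the 8 had enough counts to be among the 16661 genes tested. Igf2bp1 did not. RNA was sequenced from GFP+ cells sorted from lungs on day 14 after bleomycin, a drug that injures the alveolar epithelium. The Ctrl group (n = 2 libraries) was Alkbh5flox/+; Sftpc-CreERT2; Rosa26-mTmG and the A5-CKO group (n = 2 libraries) was Alkbh5flox/flox; Sftpc-CreERT2; Rosa26-mTmG. Both groups received tamoxifen and bleomycin. Ctrl cells also carried the Cre driver and a floxed Alkbh5 allele, so A5-CKO was set against heterozygotes. The Sftpc promoter limits recombination to cells that express surfactant protein C at the time of tamoxifen, and GFP then marks those cells and whatever they become. The age of the mice, and whether each library came from a single mouse, are not given in the sources used here, so the p-values measure only the spread between these libraries.

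m6A is a methyl mark on adenosines of mRNA that is written by the METTL3 and METTL14 complex and removed by ALKBH5 or FTO. Readers are the proteins that bind marked transcripts. YTH proteins hold the methylated base in a pocket of the YTH domain: the YTHDF proteins act in the cytoplasm on decay and translation, YTHDC1 acts in the nucleus on splicing and export, and YTHDC2 is an RNA helicase known for its part in meiosis. IGF2BP proteins bind RNA through KH domains, favour mRNA stability, and are best known from fetal tissue and tumours, with IGF2BP2 the member most often kept in adult tissue. The study asked which readers act on Areg, the mRNA of the growth factor amphiregulin.

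The 3 Ythdf genes are close copies, which matters for read counting and for base composition. The 120 coding bases most alike among the 3 are shown for both reasons, read 5′ to 3′ on the transcript strand from the GENCODE M21 annotation of GRCm38. Capitals mark the 32 positions at which the 3 sequences are not all alike, of which 28 are the third base of a codon. The stretch lies at chr2:180911092-180911211 (minus strand, exon 5 of 6) in Ythdf1, at chr4:132204537-132204656 (minus strand, exon 4 of 5) in Ythdf2 and at chr3:16204900-16205019 (plus strand, exon 5 of 6) in Ythdf3.
Ythdf1: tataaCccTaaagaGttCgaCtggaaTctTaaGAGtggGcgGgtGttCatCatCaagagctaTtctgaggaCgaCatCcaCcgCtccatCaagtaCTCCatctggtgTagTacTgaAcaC
Ythdf2: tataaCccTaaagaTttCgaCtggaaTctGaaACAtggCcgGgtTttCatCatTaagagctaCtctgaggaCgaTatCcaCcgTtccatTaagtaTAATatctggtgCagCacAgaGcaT
Ythdf3: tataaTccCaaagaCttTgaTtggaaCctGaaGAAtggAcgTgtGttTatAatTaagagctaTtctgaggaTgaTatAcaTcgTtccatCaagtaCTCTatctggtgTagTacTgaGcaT
The GC content of the stretch was 46.7% in Ythdf1, 41.7% in Ythdf2 and 36.7% in Ythdf3. Ythdf1 and Ythdf3 differed at 21 of the positions, of which 16 had G or C in Ythdf1 and A or T in Ythdf3, and 4 the reverse. Over the whole coding sequence the 3 genes were 67.8% to 69.4% identical in pairs, and the longest run of bases shared by the transcripts of any pair was 22. The Igf2bp genes were 68.3% to 68.9% identical, with a longest shared run of 28 bases. A read longer than these runs differs from the copy in at least 1 base.

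The targeted gene was checked first. Alkbh5 (chromosome 11, 60537683 to 60558512 in GRCm38.p6) had a normalised read count of 81.7 and 152 in the Ctrl libraries and of 19.3 and 36.6 in the A5-CKO libraries, given in CPM, that is counts scaled to 1000000 per library with TMM factors. The groups did not overlap, with a log2 fold change of -2.06 ± 0.46 (SE) and an adjusted p of 0.528 in edgeR's quasi-likelihood test. With DESeq2 on the same genes the adjusted p was 0.0248. Libraries held 18144865 to 20811757 counts. No gene of 16661 (0%) passed an adjusted p of 0.05 in edgeR, while 1530 had an unadjusted p under 0.05 and DESeq2 called 55. No reader passed an adjusted p of 0.05 with either tool, so the readers are described by their values.

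Of the 7 readers tested, 5 had both A5-CKO libraries above both Ctrl libraries, namely Ythdf3, Ythdc1, Ythdc2, Igf2bp2 and Igf2bp3, against 20.3% of all genes tested. None had both below, against 23.5% of genes. An unadjusted p under 0.05 with a higher level in A5-CKO was found for 2 of the 7, Ythdf3 and Ythdc1, against 4.48% of genes, and none was lower at that p, against 4.71%. The median log2 fold change of the 7 was 0.74, beside -0.02 over all genes tested. Igf2bp3, with 9 and 19 counts in Ctrl against 36 and 35 in A5-CKO, passed the count filter only with the help of its A5-CKO libraries. That it is counted here therefore depends in part on its level in A5-CKO. With at least 10 counts asked of every library it was left out, and the median of the other 6 was 0.77. The untested Igf2bp1 was also higher in both A5-CKO libraries, on very few counts. These counts are read together with the base composition of the transcripts, given further on.

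**Figure D1:**
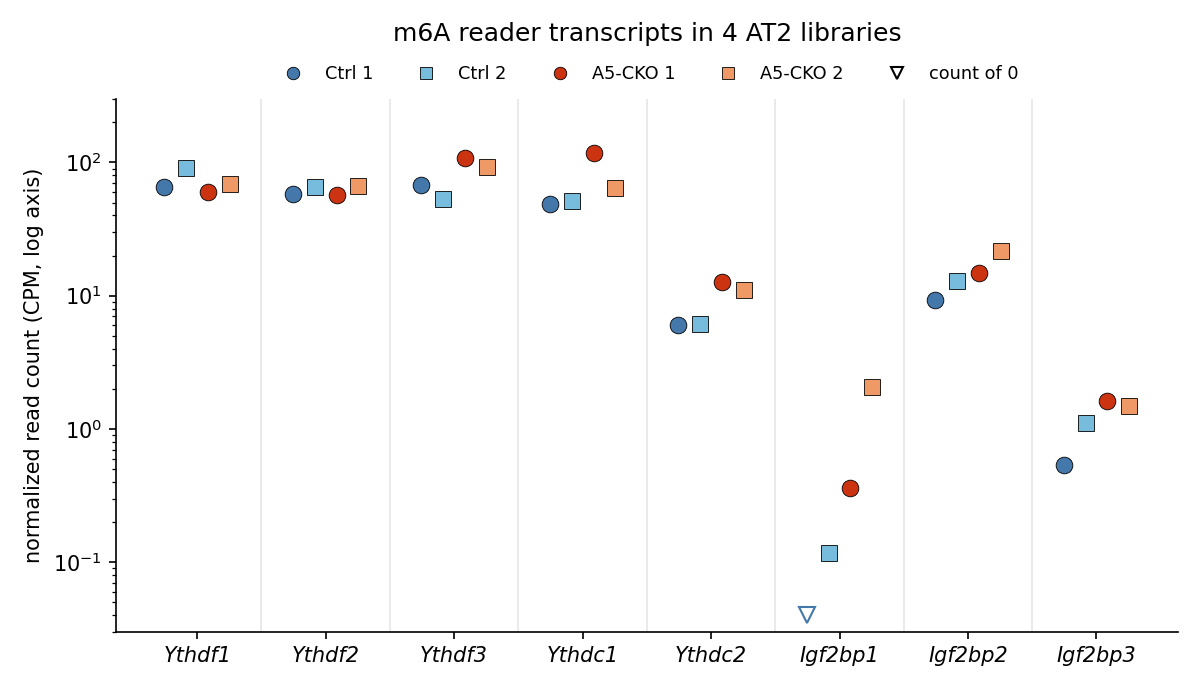
Normalised read count (CPM, log axis) of the 8 m6A readers, with 1 point for each of the 4 libraries and an open triangle at the foot of the axis for a count of 0. Ythdf1 and Ythdf2 overlap between groups, while in the other 6 readers both A5-CKO points lie above both Ctrl points.

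Among the cytoplasmic YTHDF readers, Ythdf3 had both A5-CKO libraries above both Ctrl libraries, while Ythdf1 and Ythdf2 overlapped between groups. Ythdf3 (chromosome 3, 16183148 to 16217037, plus strand), whose product works with the other YTHDF proteins in translation and decay, had 67.7 and 53.1 CPM in Ctrl and 108 and 93.1 CPM in A5-CKO. The groups did not overlap. The means were 60.4 ± 10.3 and 101 ± 10.5 CPM (SD, n = 2), a log2 fold change of 0.74 with a 95% interval of 0.04 to 1.43 (edgeR unadjusted p = 0.0417, adjusted p = 0.528). The unadjusted p was 0.0675 in edgeR with the replicate number as a block, and after a correction for GC content and length the log2 fold change was 0.17 (unadjusted p = 0.482).

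Ythdf1 (chromosome 2, 180904377 to 180920936, minus strand), best known for promoting translation of marked mRNAs, had 65.0 and 91.5 CPM in Ctrl and 59.6 and 68.5 CPM in A5-CKO. The groups overlapped, since Ctrl 1 lay between the A5-CKO libraries. The log2 fold change was -0.29 with a 95% interval of -1.02 to 0.44 (edgeR adjusted p = 0.746). Ythdf2 (chromosome 4, 132184916 to 132212256, minus strand), which brings the CCR4-NOT deadenylase to marked mRNAs, had 57.6 and 65.9 CPM in Ctrl and 56.5 and 66.9 CPM in A5-CKO. Its group means were both 61.7 CPM, and the 95% interval of the log2 fold change ran from -0.68 to 0.68 (edgeR adjusted p = 0.999).

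The makeup of the YTHDF pool can be read within each library, free of scaling between libraries. The ratio of Ythdf3 to Ythdf1 counts was 1.04 and 0.581 in Ctrl against 1.81 and 1.36 in A5-CKO. Ythdf3 thus made up 35.6% and 25.2% of the summed YTHDF CPM in Ctrl against 48.2% and 40.8% in A5-CKO, a mean difference of 14.1 percentage points that was 8.91 without Ctrl 2. The share of Ythdf1 was 34.2% and 43.5% in Ctrl against 26.6% and 29.99% in A5-CKO, a difference of -10.5 points that was -5.88 without Ctrl 2. For Ythdf2 the shares were 30.3% and 31.3% against 25.2% and 29.3%, a difference of -3.54 points, which was -1.52 when A5-CKO 1 was left out and -5.56 when A5-CKO 2 was. All 3 shares separated the groups, with an exact two-sided permutation p of 0.333, the smallest that 2 libraries against 2 allow. Shares in a library add up to the whole, so a higher share of 1 gene lowers the others and the 3 are not separate results. The Ythdf2 share was lower in A5-CKO although its mean level was 61.7 CPM in both groups. The 3 transcripts differ in GC content, at 49.1% in Ythdf1, 46.1% in Ythdf2 and 38.4% in Ythdf3, and the part of this in the shares was not tested. Per kilobase of exon the Ythdf2 share no longer separated the groups (exact permutation p = 0.667). The summed YTHDF level was 190 and 210 CPM in Ctrl and 224 and 229 CPM in A5-CKO, a ratio of 1.13.

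**Figure D2:**
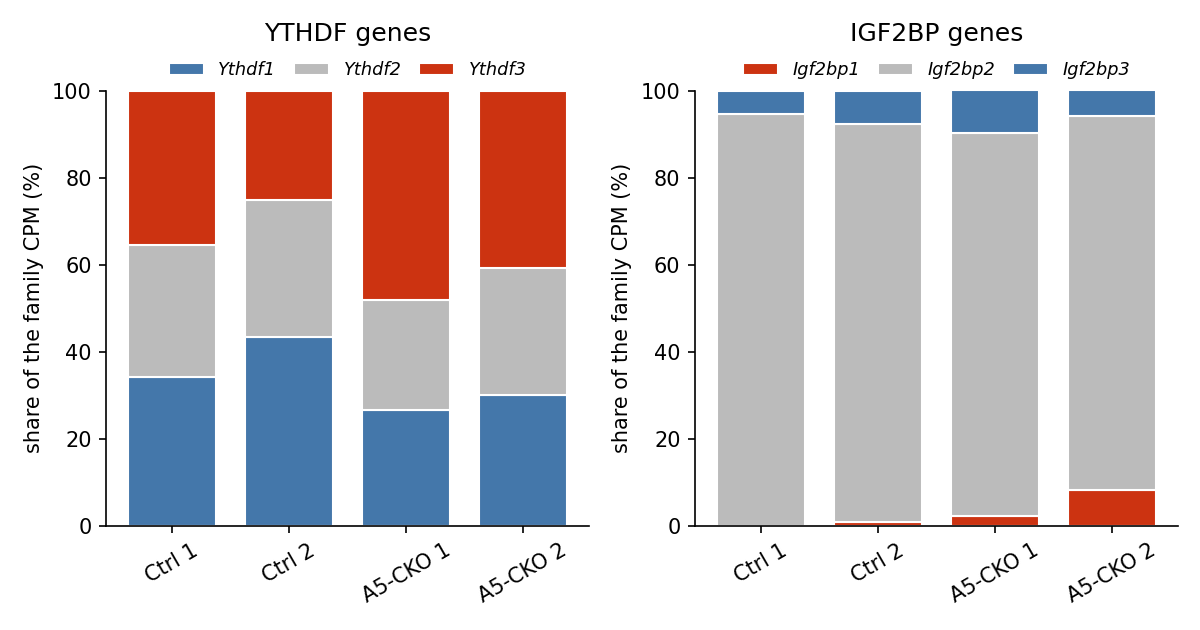
Share of each member in the summed CPM of its family, in percent, as stacked bars with 1 bar for each library. In the YTHDF family Ythdf3 takes 25.2% to 35.6% in Ctrl and 40.8% to 48.2% in A5-CKO, and in the IGF2BP family Igf2bp2 takes 86.0% or more in every library.

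Both YTHDC genes were higher in A5-CKO on the CPM scale. Ythdc1 (chromosome 5, 86803980 to 86836659, plus strand), the nuclear reader, had 48.7 and 51.3 CPM in Ctrl and 118 and 64.8 CPM in A5-CKO. The groups did not overlap, but A5-CKO 1 lay far above A5-CKO 2. The log2 fold change was 0.87 with a 95% interval of 0.02 to 1.73 (edgeR unadjusted p = 0.0469, adjusted p = 0.528), and without A5-CKO 1 it was 0.36. It was 0.81 in edgeR with the replicate block (unadjusted p = 0.0820) and 0.16 after the correction for GC content and length (unadjusted p = 0.643). The nuclear RNAs Malat1 and Neat1 were also highest in A5-CKO 1: the summed level of the nuclear RNA list (Malat1, Neat1, Kcnq1ot1 and Meg3, the last at 0 in all libraries) was 1191 and 1129 CPM in Ctrl and 6043 and 2067 CPM in A5-CKO. The part of this in the Ythdc1 level was not tested. Ythdc1 also shares 631 exon bases with the lincRNA Gm43055 on the same strand.

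Ythdc2 (chromosome 18, 44827730 to 44889720, plus strand) was a low gene, with 102 and 105 counts in Ctrl against 282 and 260 in A5-CKO. This came to 6.03 and 6.11 CPM in Ctrl and 12.8 and 11.1 CPM in A5-CKO, with little spread inside either group. The log2 fold change was 0.98 with a 95% interval of -0.07 to 2.02 (edgeR unadjusted p = 0.0631, adjusted p = 0.528). Leaving out any library gave 0.86 to 1.04, the narrowest such range among the 5 tested readers that separated the groups.

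Igf2bp2 was the main IGF2BP transcript in these cells. Igf2bp2 (chromosome 16, 22059009 to 22163299, minus strand) had 9.28 and 13.0 CPM in Ctrl and 14.8 and 21.8 CPM in A5-CKO. The groups did not overlap, although Ctrl 2 lay close to A5-CKO 1. The log2 fold change was 0.72 with a 95% interval of -0.29 to 1.73 (edgeR adjusted p = 0.578), and it was 0.38 without A5-CKO 2.

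Igf2bp3 (chromosome 6, 49085218 to 49215469, minus strand) had 9 and 19 counts in Ctrl against 36 and 35 in A5-CKO, or 0.532, 1.11, 1.63 and 1.496 CPM. The log2 fold change of 0.93 had a 95% interval of -0.79 to 2.64 (edgeR adjusted p = 0.657), and it was 0.55 without Ctrl 1 and highest without Ctrl 2, the Ctrl library with more of its counts. The exons of Igf2bp3 overlap those of Malsu1, a mitochondrial ribosome factor on the opposite strand, over 1529 bases. Malsu1 had 338 and 297 counts in Ctrl against 344 and 374 in A5-CKO, many times the Igf2bp3 counts. Whether the counting used strand is not given in the sources used here, so reads of the overlap cannot be told apart.

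Igf2bp1 (chromosome 11, 95957163 to 96005944, minus strand), the member best known from fetal tissue, had 0 and 2 counts in Ctrl against 8 and 48 in A5-CKO. Both Ctrl libraries were under the floor of 3 counts, the most that a count of 0 allows, which stands for 0.177 and 0.175 CPM. Summed over libraries and set against library size, the A5-CKO level was 20.99 times the Ctrl level, with an exact 95% interval of 5.55 to 178 that covers counting error only. Most of the counts came from A5-CKO 2, and without it the ratio was 6.18 (1.23 to 59.7). All Igf2bp1 counts were even, and genes with a count of 2 outnumbered those with 1 in every library, so 2 counts may stand for 1 fragment. Taken that way, a choice made after seeing the data, the interval was 3.47 to 858 over all libraries and 0.611 to 304 without A5-CKO 2, which then included 1. The fetal gene Hmga2, chosen here after its values were seen, was also highest in that library, with 2, 0, 2 and 133 counts in the 4 libraries in the same order, so that A5-CKO 2 alone held nearly all of them. Igf2bp1 shares 43 exon bases with the antisense gene Gm29202 and 92 with the microRNA gene Mir3063.

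Within the IGF2BP family, Igf2bp2 made up 94.6% and 91.4% of the summed CPM in Ctrl against 88.1% and 86.0% in A5-CKO, a difference of -5.91 percentage points. The Igf2bp1 share was 0% and 0.820% in Ctrl against 2.16% and 8.09% in A5-CKO, a difference of 4.72 points that was 1.75 when A5-CKO 2 was left out and 7.68 when A5-CKO 1 was. Both shares separated the groups, at an exact permutation p of 0.333. These shares also depend on each other, and the Igf2bp2 share was lower in A5-CKO although its CPM was higher there. The Igf2bp3 share overlapped, at 5.42% and 7.79% in Ctrl against 9.70% and 5.90% in A5-CKO (exact permutation p = 0.667). The summed IGF2BP level was 9.82 and 14.2 CPM in Ctrl and 16.8 and 25.3 CPM in A5-CKO, a ratio of 1.76.

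Levels of the readers were compared with each other as CPM per kilobase of exon. Ythdf1 was first at a mean of 21.5 over the 4 libraries (17.97 to 27.6), then Ythdf3 at 15.0 (9.90 to 20.1) and Ythdf2 at 13.5 (12.4 to 14.6). The ranges of Ythdf3 overlapped those of both others, and in A5-CKO 1 Ythdf3 lay above Ythdf1. Ythdf3 was above Ythdf2 in both A5-CKO libraries. In Ctrl 1 the 2 were nearly level, at 12.62 for Ythdf3 and 12.60 for Ythdf2. In Ctrl 2 Ythdf2 was the higher, at 14.4 against 9.90, so its Ctrl mean of 13.5 lay above the 11.3 of Ythdf3. Ythdc1 followed at 5.18 (3.56 to 8.67), on this length below all 3 YTHDF genes in every library. Igf2bp2 was at 1.99 (1.25 to 2.95) and Ythdc2 at 1.01 (0.679 to 1.44), whose ranges overlapped although Igf2bp2 was the higher in each of the 4 libraries. Igf2bp3 at 0.146 and Igf2bp1 at 0.0653 came last. Among the 15237 tested genes with a known length, Ythdf1 was at percentile 82.9, Ythdc1 at 51.0, Igf2bp2 at 31.0 and Igf2bp3 at 3.03. With the longest transcript as the length the order of the means was the same, but the range of Ythdc1 (7.71 to 18.7) then overlapped those of all 3 YTHDF genes, and in A5-CKO 1 Ythdc1 was level with Ythdf1 and above Ythdf2.

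**Figure D3:**
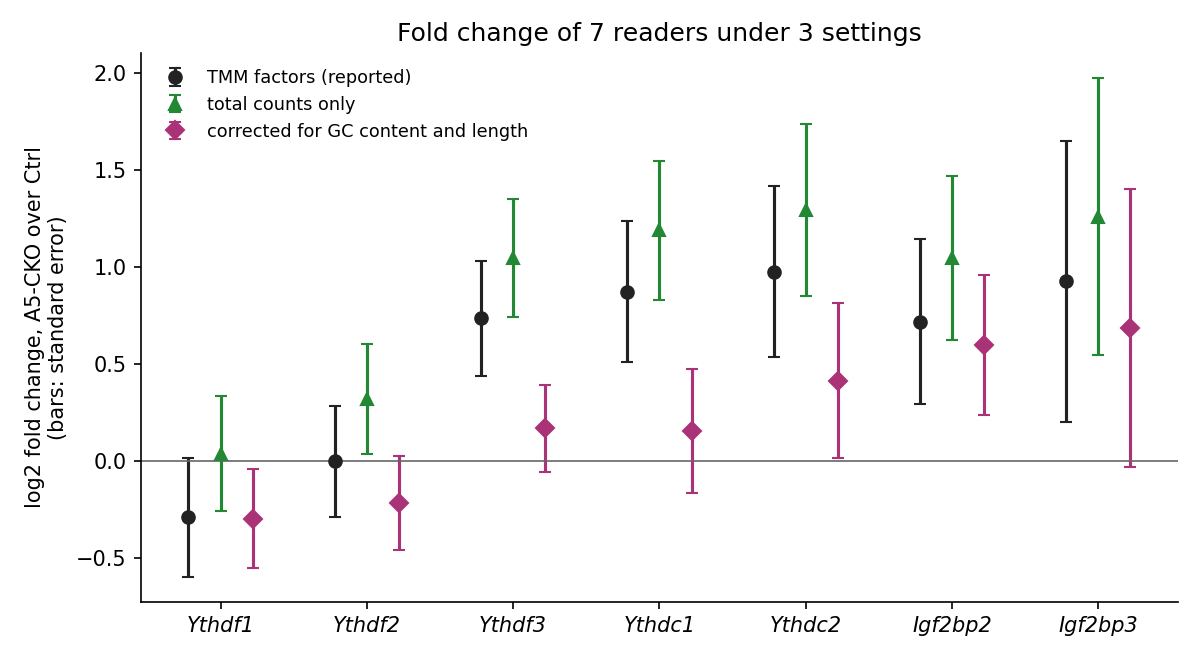
Log2 fold change of the 7 readers tested, A5-CKO over Ctrl, under 3 settings: TMM scaling, total counts only, and a correction for GC content and length, with bars of 1 standard error. Ythdf3 goes from 0.74 with TMM scaling to 0.17 after the correction and Ythdc1 from 0.87 to 0.16, while Igf2bp2 goes from 0.72 to 0.60.

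Ythdf3 and Ythdc1, the 2 readers with an unadjusted p under 0.05, have long transcripts poor in G and C, and fold changes across all genes moved with both properties. Across 15237 genes the log2 fold change had a Spearman correlation of -0.37 with GC content and 0.29 with length, given as a description since genes are not independent replicates. Genes of 36% to 38% GC had a median log2 fold change of 0.61 (218 genes), genes of 38% to 40% GC one of 0.41 (534 genes), and genes of 60% or more GC one of -0.44 (647 genes). Ythdc1 transcripts are 37.6% GC, lower than all but 1.61% of genes. Ythdf3 transcripts are 38.4% GC, at percentile 2.47, and Ythdc2 transcripts 42%, at percentile 11.3. Ythdf1 at 49.1%, Igf2bp2 at 49.7% and Igf2bp1 at 50.8% GC lie in the middle of the range. Set beside genes of like GC content, Ythdc1 lay within the 25th to 75th percentile of its bin (0.19 to 1.05) and Ythdf3 within that of its own (0.03 to 0.85). Ythdc2, Igf2bp3 and Igf2bp2 lay above the 75th percentile of theirs, which was 0.69, 0.59 and 0.43 respectively.

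With GC content and length taken out in each library, the log2 fold change was 0.17 ± 0.23 (SE) for Ythdf3 and 0.16 ± 0.32 for Ythdc1. Ythdc2 had 0.41 ± 0.40. Igf2bp2 moved the least of the readers above 0, to 0.60 ± 0.36 (unadjusted p = 0.147), and Igf2bp3 came to 0.69 ± 0.72. Ythdf1 and Ythdf2 came to -0.30 and -0.21. The median of the 7 readers was then 0.17. None had an unadjusted p under 0.05, against 2.42% of all genes higher and 4.93% lower at that p in the same fit. Whether the trend with GC content came from the preparation of the libraries or from the cells was not tested.

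**Figure D4:**
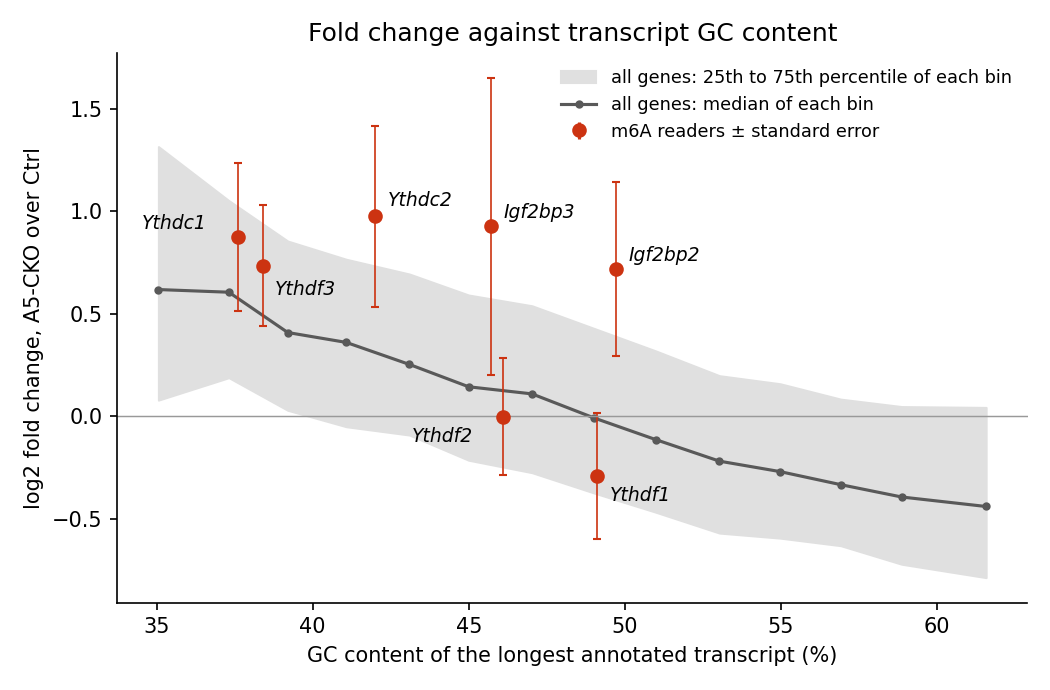
Log2 fold change, A5-CKO over Ctrl, against the GC content of the longest transcript in percent: the line joins the medians of genes in bins of GC content, the band spans their 25th to 75th percentile, and labelled points with bars of 1 standard error are the 7 readers tested. The medians go from 0.62 below 36% GC to -0.44 at 60% GC and over, and Ythdf3 and Ythdc1 lie inside the band while Ythdc2, Igf2bp2 and Igf2bp3 lie above it.

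The genes of the m6A pathway around the readers were counted in fixed lists. Of the 9 writers and erasers other than Alkbh5, 1 was higher and none lower at an unadjusted p under 0.05, against 4.48% and 4.71% of all genes, and the median log2 fold change was -0.0016. That gene was Rbm15, an adaptor of the methyltransferase complex, with 172 and 173 counts in Ctrl against 673 and 450 in A5-CKO (log2 fold change 1.30, edgeR unadjusted p = 0.0154). Its paralogue Rbm15b differed the other way, at -0.76 (unadjusted p = 0.0541), as did the other demethylase Fto, at -0.78 (unadjusted p = 0.0774). Mettl14, the partner of the catalytic subunit, was at 0.54 (unadjusted p = 0.264). After the GC and length correction the median was -0.27, with none higher and 2 lower at that p, against 2.42% and 4.93% of all genes then. Those 2 were Rbm15b at -0.76 (edgeR unadjusted p = 0.0183) and Fto at -0.92 (unadjusted p = 0.0216), while Rbm15 was at 0.88 (unadjusted p = 0.0522). Mettl14 was then at -0.07.

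Of 13 other RNA-binding proteins linked with m6A, 12 were tested, 1 was higher and 1 lower at an unadjusted p under 0.05, against 4.48% and 4.71% of all genes, and the median was 0.07. Fmr1, the fragile X protein gene, was at 0.93 (unadjusted p = 0.01997) and Snd1, a nuclease, at -0.90 (unadjusted p = 0.0493). Eif3a, a subunit of a translation initiation factor, was at 0.57 and the stress granule gene G3bp1 at -0.25. After the correction the median was -0.11. None was then higher and 1 lower at that p, against 2.42% and 4.93% of all genes. The lower gene was Snd1 at -0.94 (edgeR unadjusted p = 0.0221), while Fmr1 was at 0.43 (unadjusted p = 0.140). Eif3a and G3bp1 were then at 0.22 and -0.52. Prrc2a was listed at 0 in all 4 libraries.

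Of the 19 genes of deadenylation and decay, which act downstream of YTHDF2, 14 had a log2 fold change above 0 against 49.1% of all genes, and the median was 0.23. The groups were separated upwards by 7 and downwards by 1, against 20.3% and 23.5% of all genes. At an unadjusted p under 0.05 1 of the 19 was higher and none lower, near the 4.48% of all genes that were higher, namely Cnot6, a catalytic deadenylase of CCR4-NOT, at 0.70 (unadjusted p = 0.0427). The exonuclease Xrn1 was at 0.74 (unadjusted p = 0.0670), Pan3 at 0.57 and Cnot6l at 0.41. After the GC and length correction the median of the list was -0.02. None of the 19 was then called at that p, against 2.42% of all genes higher and 4.93% lower. Cnot6 was then at 0.12, Xrn1 at 0.05, Pan3 at 0.32 and Cnot6l at -0.39.

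All 6 tested genes of 8 that work with the YTHDC proteins had a log2 fold change above 0, against 49.1% of all genes, with a median of 0.42, and 3 of the 6 separated the groups upwards, against 20.3%. Cpsf6, a cleavage and polyadenylation factor bound by YTHDC1, was at 0.91 (edgeR unadjusted p = 0.0328), and the splicing factors Srsf1 and Srsf3 were at 0.49 and 0.35. Meioc and Rbm46, the meiotic partners of YTHDC2, had too few counts to test. After the correction the median was -0.03 and Cpsf6 was at 0.24 (edgeR unadjusted p = 0.433). Srsf1 and Srsf3 were then at -0.02 and -0.05. Of the 7 partners of IGF2BP proteins, 6 were tested. None had an unadjusted p under 0.05, against 4.48% of all genes higher and 4.71% lower. The median was 0.15, or -0.16 after the correction. Dhx9 was at 0.44 and Syncrip at 0.31 before the correction, and at 0.13 and -0.53 after it.

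Of 9 fetal genes of the LIN28 and let-7 circuit, 5 were tested. None had an unadjusted p under 0.05, against 4.48% of all genes higher and 4.71% lower. The median was -0.50, or -0.11 after the correction. Lin28b had 0, 0, 2 and 0 counts, and Lin28a 2, 14, 4 and 7. A last list held 5 mRNAs known to be bound by IGF2BP proteins plus Areg, which was put there only as the target the study picked, so that its level is no independent evidence about the list. Of these 6, 5 were tested with a median of 0.05, or -0.12 after the correction, and 1 was higher at an unadjusted p under 0.05, against 4.48% of all genes. This was Areg, with 668 and 408 counts in Ctrl against 1524 and 1625 in A5-CKO (log2 fold change 1.13, edgeR unadjusted p = 0.0140, adjusted p = 0.528). After the GC and length correction Areg was at 1.29 (edgeR unadjusted p = 0.00233) and was again the only 1 of the 5 called, against 2.42% of all genes. No gene passed an adjusted p of 0.05 in that fit.

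The labelled cell type was checked against its markers. AT2 markers were abundant in every library, with a summed level of 56429 and 81756 CPM in Ctrl and 42071 and 34729 CPM in A5-CKO. All 9 had a log2 fold change below 0, with a median of -0.85, where 49.1% of all genes tested were above 0. The groups were separated downwards by 6 of the 9, against 23.5% of all genes. In bulk samples, fewer cells of a type and less RNA per cell cannot be told apart. Markers in 4 other lists were highest in A5-CKO 2, the library with the highest Igf2bp1 and Igf2bp2. In the 4 libraries, Ctrl first, the summed level of 8 fibroblast markers was 406, 151, 99.0 and 1048 CPM, that of 10 macrophage and leukocyte markers 835, 188, 244 and 1138 CPM, that of 6 proliferation markers 57.4, 27.4, 52.7 and 118 CPM and that of 4 transitional markers 1682, 720, 970 and 1831 CPM. Of 6 AT1 markers 4 were tested, with a median log2 fold change of 0.69. Of these 4, 3 were above 0, against 49.1% of all genes. Named here after their values were seen, Hopx and Cav1 separated the groups upwards and Aqp5 downwards, against 20.3% and 23.5% of all genes. Aqp5, at 981 and 951 CPM in Ctrl against 479 and 636 CPM in A5-CKO, made up most of the summed AT1 level of 1207 and 1071 against 791 and 915 CPM. Ager had 2 to 6 counts. Endothelial markers summed to 95.7 to 212 CPM with Cldn5 at 0, and club and ciliated markers to 1277 to 2883 CPM. The part of these cells in the reader levels was not tested.

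For each reader tested, the gene with the most similar profile was found by the root mean square difference of log2 CPM over the 4 libraries, each gene centred on its own mean. For Ythdf3 it was Mbnl1, a splicing factor, with 142 and 113 CPM in Ctrl and 230 and 192 CPM in A5-CKO (difference 0.0181). For Ythdc1 it was Fancm (0.0279), for Ythdc2 Stx1a (0.0203), for Ythdf1 Adgra3 (0.0178), for Ythdf2 Gm39214 (0.0122), for Igf2bp2 Prokr1 (0.0279) and for Igf2bp3 Ankrd44 (0.0565). The named gene was never the only close one. Under 1 fixed cutoff on this difference, 281 genes lay near Ythdf1, 275 near Ythdf2, 103 near Ythdf3 and 50 near Ythdc1. By the same cutoff 37 lay near Ythdc2, 16 near Igf2bp2 and 13 near Igf2bp3.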

How the data were processed

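RNA-seq was made from sorted AT2 cells of 2 Ctrl and 2 A5-CKO libraries with a SMARTER mRNA kit. The authors deposited raw read counts per gene, not normalized. Their methods name Trim Galore 0.6.10, removal of ribosomal reads, HISAT2 2.2.1 on mm10.p6, removal of duplicates and featureCounts 2.0.3; the counting step is described for another assay of the study, and its strand and read-pair settings are not given in the sources used here. Genes with a count of 2 (1749 to 2790 per library) outnumbered those with a count of 1 (429 to 652); whether the mates of a pair were counted apart was not tested.

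Groups came from the labels. Counts were filtered with filterByExpr, scaled by TMM and tested with edgeR 4.0.16 (quasi-likelihood, R 4.3.3), with Benjamini-Hochberg adjustment over 16661 genes; the common biological coefficient of variation was 41.6%. DESeq2 1.42.0 and limma 3.58.1 (voom) were alternatives, beside other scalings, filters, a replicate block, a GC and length correction (splines of 4 degrees of freedom on GRCm38.p6 transcripts, 91.5% of genes matched) and leaving out each library. The scripts were tested on simulated data. Gene coordinates are from RefSeq and sequences from GENCODE M21, aligned with MAFFT 7.526. The ratio for Igf2bp1 is an exact conditional estimate with 95% limits, and the floor is 3 counts; both cover counting error only.

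The readers were named in full. From each list, at most 4 genes were named, those that separated the groups with the smallest unadjusted p, plus the most similar gene of each reader. The members and lists were chosen with earlier results of these data known. The deviations of same-numbered libraries from their group means correlated at -0.35, and no label ties the numbers to a litter or day, so the main test had no block. Every pair of libraries differed beyond counting error, at a chi-square of 88.7 or more for each degree of freedom.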

Additional observations from a re-analysis of the deposited data

How the results depend on the processing

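No reader passed an adjusted p of 0.05 in any fit without the crossed block, so that threshold tells nothing of stability. Of 12 fits on the 4 libraries, Ythdf3 had an unadjusted p under 0.05 in 9 and Ythdc1 in 8. Of 119 alternative values for single genes 9 turned direction, those of Ythdf1 and Ythdf2. Ythdf2 was at 0.048 with RLE scaling, 0.10 with upper-quartile scaling, 0.32 with total counts only, 0.048 and 0.031 with DESeq2 on the same genes and with its default filter, and 0.044 with 10 counts or more in every library; leaving out a library gave -0.16 to 0.10. Ythdf1 was at 0.039 with total counts only, a scaling that moved the median of all genes to 0.30. Genes with an adjusted p under 0.05 numbered 0 in edgeR, 55 with DESeq2 on the same genes and 59 with its default filter. Genes with an unadjusted p under 0.05 numbered 1530, and 746 (without A5-CKO 1) to 1668 without 1 library. Readers with an unadjusted p under 0.05 numbered 2, and 4 with total counts only or with DESeq2's default filter (Igf2bp1 included). Over all genes, 1877 of 16661 were under that p with total counts only and 1827 of 27072 with DESeq2's default filter. The readers numbered 1 with voom, namely Ythdf3, beside 1445 of 16661 genes. After the GC and length correction they numbered 0, beside 1119 of 15237 genes. With no filter they numbered 1, beside 1692 of 27072 genes, but this was Igf2bp1. Every other reader was then above 0.05, with Ythdf3 at 0.0506 in edgeR. The readers' median of 0.74 was 1.05 with total counts only and 0.17 after the GC and length correction. The Igf2bp3 share difference of 1.20 points was -0.70 without A5-CKO 1 and up to 3.10 without another library. The causes were not tested. Where leaving out a library left 1 in its group, that library was assumed to vary like the other group.

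The libraries share replicate numbers but, with no label tying them, only a number. With the replicate block 754 genes and 0 readers had an unadjusted p under 0.05. A crossed block, chosen after seeing the data because the same-numbered libraries correlated at -0.35, gave 230 genes with an adjusted p under 0.05. At an unadjusted p under 0.05 it gave 2582 of 16661 genes and 3 of the 7 readers tested. The adjusted p of the readers in that fit is not reported here. Counts as low as those of Igf2bp1 and Igf2bp3 limit what these libraries can show of either.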

Other observations

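Hnrnpu, the gene of an abundant nuclear RNA-binding protein and a known partner of IGF2BP1, was listed at 0, 2, 3 and 0 counts over the 4 libraries, Ctrl first, and Prrc2a at 0 in all 4. The count table also lists 222 genes under a name that ends in an added number, as for Pdpn, an AT1 marker, whose main entry held 3, 0, 17 and 3 counts and whose added entry held 41, 18, 73 and 52. No reader had such an added entry.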
